A study of Mus musculus with 6 samples.

Results

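Ezh2 is the histone methyltransferase of the Polycomb repressive system. The suppressors of cytokine signalling (SOCS) were followed in mouse lymph node T cells labelled Ezh2 fl/fl or Ezh2 deficient. The family has 8 genes, Cish and Socs1 to Socs7, and each was read through every probe set of the array whose single annotated gene symbol is one of these names. All 8 were found among the 18193 genes named this way, with 24 of the 45101 probe sets. The study hybridised total RNA of lymph node T cells to 6 single-colour Affymetrix mouse arrays, 3 labelled Ezh2 fl/fl and 3 labelled Ezh2 deficient. In the usual notation fl/fl means that both Ezh2 alleles carry loxP sites. The labels name no Cre driver, strain, age, sex or treatment for either group, and nothing in them says that the 3 samples of a group were separate animals, so a p-value here reflects only how these 6 samples vary, which may be technical.

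SOCS proteins are the negative feedback arm of the JAK-STAT pathway. A cytokine receptor activates JAK kinases, these phosphorylate STAT transcription factors, and the STATs switch on SOCS genes whose products then shut the receptor down. Each protein has an SH2 domain that binds phosphotyrosine and a SOCS box that recruits elongins and the cullin Cul5 to build a ubiquitin ligase. Cish, Socs1, Socs2 and Socs3 are the cytokine-induced members, whereas Socs4 to Socs7 are better known for restraining growth factor and insulin-type receptors.

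Values are quantile normalised intensities, given for each array without a log, and the Ezh2 fl/fl samples are called controls. Differences are Ezh2 deficient minus Ezh2 fl/fl on the log2(intensity + 43.3) scale, which understates the change of dim probe sets. The test was limma over all 27022 probe sets that passed a brightness filter, with Benjamini-Hochberg adjustment over all of them and a call at an adjusted p under 0.05. Intensities of different probe sets depend on the probes as well as on the transcript, so no member was ranked against another. The targeted gene followed its labels, with Ezh2 at 688 ± 111 in the controls against 282 ± 6.55 in the deficient samples (SD, n = 3 each, log2 difference -1.16, limma unadjusted p = 7.83e-06). Its adjusted p over all tested probe sets was 0.0705, above the threshold used for calls here. The 8 measured T cell markers summed to between 70808 and 72240 in the controls against between 70969 and 71406 in the deficient samples, with Cd3d at 16876 ± 440 and 16496 ± 735. On the first principal component Ezh2 fl/fl replicate 1 lay far from the rest, at -41.5 against 1.48 to 15.1, and without it limma likewise called 0 SOCS probe sets.

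No SOCS family gene passed the test. Of the 24 probe sets, 18 were bright enough to be tested, with at least 1 for every gene, and limma called 0 of them, against 0.0037% of all tested probe sets. At an adjusted p under 0.10 it also called 0, against 0.0222%. At an unadjusted p under 0.05 there were 3 of 18, namely 1 of Socs2 on the lower side and 2 of Socs7 on the higher side, against 7.22% of all tested probe sets. The smallest adjusted p was 0.619. Of the 18 differences, 8 were positive and 10 negative with a median of -0.032, and over all tested probe sets the median was -0.0029 with 49.3% positive. The groups did not overlap for 2 of the 18, against 13.1% of all tested probe sets, with 1 of the 2 lower in the deficient samples (6.54% of all) and 1 higher (6.55% of all). Under the deposited scaling 4 of the 18 were apart, 3 of them lower, against 13.5% of all tested probe sets. The unadjusted 95% interval of the difference lay within 2-fold in both directions for all 18 probe sets (96.4% of all tested) and within 1.5-fold for 11 of them (75.7% of all tested). The first count was 17 with median centring, with a pseudocount 4 times lower, by eBayes without trend, by robust eBayes and with array weights, and 15 to 17 with an array left out. In bulk RNA of this kind, fewer cells of a type and less RNA per cell cannot be told apart.

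**Figure D1:**
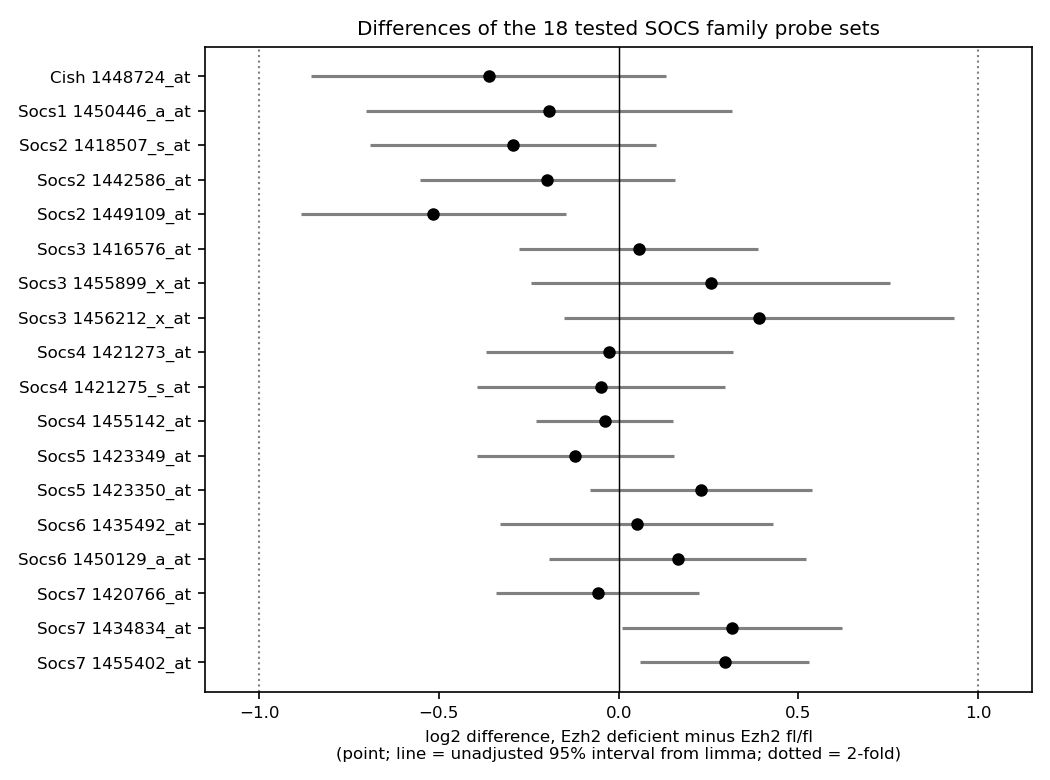
Log2 difference of each of the 18 tested SOCS family probe sets (point), Ezh2 deficient minus Ezh2 fl/fl, with its unadjusted 95% interval from limma (line); the dotted lines mark 2-fold. All 18 intervals stay inside the dotted lines, and 3 of them, 1 of Socs2 and 2 of Socs7, leave out 0.

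Near the start sites of 3 cytokine-induced members lie letters of the kind that STATs or interferon-activated factors recognise, and these are shown because the values of Cish, Socs1 and Socs3 are read below beside those of the pathway. RefSeq promoter windows of the GRCm38.p6 build, running from 250 bases before to 50 bases after the annotated start, were matched for 4 of the 8 members: Cish, Socs1, Socs3 and Socs4. They were searched on both strands for the STAT-type palindrome TTCNNNGAA, which 8.3% of all such windows hold, and for the interferon-type repeat GAAANNGAAA, which 3.44% hold. Capitals mark the matches. The Cish stretch begins at the first transcribed base and holds 2 STAT-type matches (chr9:107296659-107296678, plus strand). The Socs3 stretch holds 1 (chr11:117969487-117969545, minus strand), and the Socs1 stretch holds 2 overlapping interferon-type matches (chr16:10785579-10785644, minus strand). The Socs4 window held neither motif. A match is a description of the letters and does not show that a factor binds there.
Cish: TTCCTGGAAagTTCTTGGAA
Socs3: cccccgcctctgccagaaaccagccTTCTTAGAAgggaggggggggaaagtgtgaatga
Socs1: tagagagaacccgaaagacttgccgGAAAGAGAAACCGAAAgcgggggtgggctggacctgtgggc

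Cish, which is induced through STAT5 and dampens IL-2 and T cell receptor signalling, was set apart by a single control array. Its probe set (1448724_at) read 1567, 3209 and 1782.5 in control replicates 1, 2 and 3, against 1665, 1659 and 1507 in the deficient ones, and values below follow the same order. The 3 deficient arrays lay close together, and 1 of them lay below all 3 controls. The mean was 2186 ± 892 for the controls and 1610.1 ± 89.5 for the deficient samples (SD, n = 3 each), a log2 difference of -0.36 (SE 0.22, 95% interval -0.86 to 0.13, adjusted p = 0.751). Without Ezh2 fl/fl replicate 2 the difference was -0.054.

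Socs2, the closest relative of Cish and another STAT5 target, known for restraining growth hormone signalling, had the lowest difference of the family. On the probe set 1449109_at it read 169.6, 228 and 192 in the controls against 137, 114 and 120.4 in the deficient samples. No deficient value reached the lowest control. The difference was -0.52 on the log2 scale, a 1.43-fold lower level (SE 0.16, 95% interval -0.88 to -0.15), with a limma unadjusted p of 0.0114 that did not survive adjustment (adjusted p = 0.619).

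The other Socs2 probe sets lay on the same side where they could be tested. The probe set 1418507_s_at, designed like 1449109_at on the same RefSeq transcript record, read 152, 247 and 209.9 in the controls against 154, 153 and 158 in the deficient samples. Here the deficient arrays were nearly equal and Ezh2 fl/fl replicate 1 sat just below them, so the groups overlapped (log2 difference -0.29, 95% interval -0.69 to 0.10, adjusted p = 0.749). In the deposited values, before quantile normalisation, replicate 1 read 168.5 against 146.6 to 152.9 in the deficient samples and the groups were apart. The probe set 1442586_at was at -0.20 (95% interval -0.55 to 0.16) with deficient replicate 2 above 2 of the controls. The remaining 3 Socs2 probe sets were below the filter, with group means between 7.72 and 84.4, and were at -0.50, 0.08 and 0.25 without a test.

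Socs1, the interferon-induced member that blocks JAK kinase activity directly, varied as much within the groups as between them. Its probe set (1450446_a_at) read 381, 701 and 498 in the controls against 599.5, 373.5 and 383 in the deficient samples. Ezh2 fl/fl replicate 2 and deficient replicate 1 were the high arrays, and the groups overlapped. The means were 527 ± 162 and 452 ± 128 (SD, n = 3 each), a log2 difference of -0.19 (SE 0.23, 95% interval -0.70 to 0.32, adjusted p = 0.877). Without Ezh2 fl/fl replicate 2 it was 0.017.

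Socs3, induced through STAT3 and the inhibitor of receptors that signal through gp130, had 3 positive differences. The probe set 1456212_x_at read 3562, 4726 and 2163 in the controls against 5187, 4358 and 3667 in the deficient samples. Ezh2 fl/fl replicate 3 was the lowest array and the groups overlapped. The means were 3484 ± 1283 and 4404 ± 761 (SD, n = 3 each), a log2 difference of 0.39 (SE 0.24, 95% interval -0.15 to 0.93, adjusted p = 0.757).

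The 2 further Socs3 probe sets gave smaller values. The probe set 1455899_x_at was at 0.26 (95% interval -0.24 to 0.76), with 6293, 7198 and 3830 in the controls against 7506, 7605.5 and 5200.4 in the deficient samples. The probe set 1416576_at was at 0.06 (95% interval -0.28 to 0.39), with 1248, 1727 and 1127 against 1521, 1417 and 1271. Names ending in _x_at mark probe sets whose probes may match other transcripts, and the pair with that ending had the larger differences. Without Ezh2 fl/fl replicate 3 the difference of 1456212_x_at was 0.087, and those of 1455899_x_at and 1416576_at turned to -0.012 and -0.067.

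**Figure D2:**
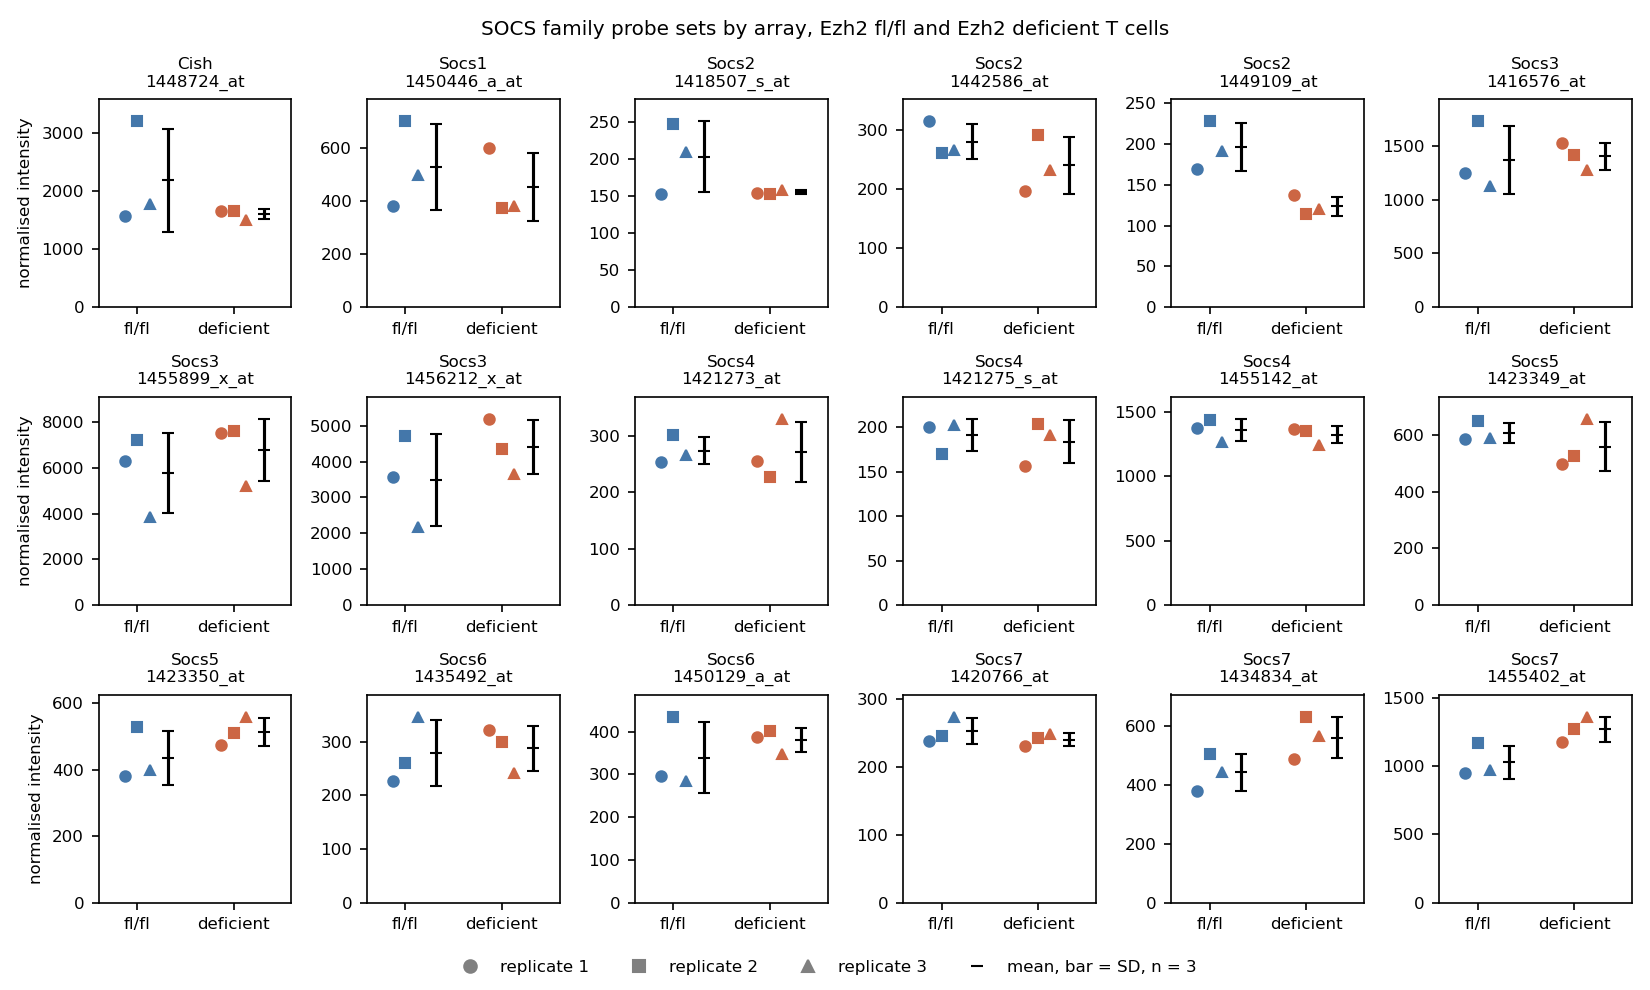
Normalised intensity of each tested SOCS family probe set on every array (circle, square and triangle for replicates 1, 2 and 3), with the mean and SD of each group of 3 as a black bar; each panel has its own axis from 0. The square of the Ezh2 fl/fl group is the highest of the 3 controls in 14 of the 18 panels, and the groups are apart for 1449109_at of Socs2 and 1455402_at of Socs7.

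Among the members tied to growth factor receptors, Socs7, an adaptor-binding member linked to insulin and prolactin signalling, had the only tested probe set whose groups did not overlap in the main scaling. The probe set 1455402_at read 949.7, 1167 and 967 in the controls against 1174.5, 1271 and 1357 in the deficient samples. No control reached the lowest deficient value, the nearest pair being 1167 and 1174.5. The difference was 0.29 on the log2 scale (SE 0.10, 95% interval 0.06 to 0.53, adjusted p = 0.636), with a limma unadjusted p of 0.0194.

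Another Socs7 probe set had a like difference, and the next did not. The probe set 1434834_at read 379, 506 and 445 in the controls against 488, 630 and 565 in the deficient samples, with an overlap of 1 array and a difference of 0.31 (95% interval 0.01 to 0.62, adjusted p = 0.684). The probe set 1420766_at was at -0.06 (95% interval -0.34 to 0.22), with means of 253 ± 19.1 and 241 ± 9.13 and groups that overlapped, though they were apart, the deficient samples lower, in the deposited values. The last, 1438492_at, was below the filter, with the deficient arrays running from 31.6 to 124. The probe sets of this gene therefore did not share a direction.

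Socs4 and Socs5 are known for promoting turnover of the epidermal growth factor receptor. The Socs4 probe set 1455142_at read 1380, 1435 and 1266.5 in the controls against 1366, 1356 and 1247 in the deficient samples, a difference of -0.04 (SE 0.08, 95% interval -0.23 to 0.15). That was the narrowest interval in the family. The other tested Socs4 probe sets were at -0.03 (1421273_at) and -0.05 (1421275_s_at), and 1421274_at was below the filter. Socs5 had differences of opposite sign, -0.12 on 1423349_at (95% interval -0.39 to 0.15) and 0.23 on 1423350_at (95% interval -0.08 to 0.54). The first read 586, 649.8 and 590.3 against 497, 525 and 657, and the second 381, 529 and 399 against 475, 509.9 and 559.5.

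Socs6, which binds the kinases Kit and Lck, was at 0.16 on 1450129_a_at and 0.05 on 1435492_at, with overlapping groups on both. The first read 297, 435 and 285 in the controls against 388, 402 and 348.5 in the deficient samples (95% interval -0.19 to 0.52, adjusted p = 0.848). A dim Socs6 probe set, 1452764_at, read 83.0, 78.1 and 73.6 in the controls against 104.7, 98.7 and 116.6 in the deficient samples. All 3 deficient values were higher, but this probe set was below the filter and was not tested in the comparison given here.

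The family shared a pattern across the control arrays that no group label describes. Ezh2 fl/fl replicate 2 was the highest of the 3 controls for 14 of the 18 tested probe sets, where it was the highest for 33.0% of all tested probe sets. It was the highest control for 7 of the 8 genes by the brightest tested probe set, the exception being Socs2, whose 2 other tested probe sets had it highest. It was the highest of all 6 arrays for 7 of the 18, against 17.0% of all tested probe sets. These counts were made after the values were seen, and the probe sets of 1 gene are not independent. In the same array the median of 19 STAT-induced genes, Cish among them, was 0.09 above the control mean. The medians of the common gamma chain family receptors (0.18) and the cytokine ligands (0.11) were above it too. Those of the JAK kinases (-0.06) and of the gp130, IL-12 and IL-10 family receptors (-0.09) were below it. The other pathway lists lay between -0.02, for the interferon response genes, and 0.04. High values in this array were thus not particular to the SOCS family. The cause of this pattern was not tested.

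**Figure D3:**
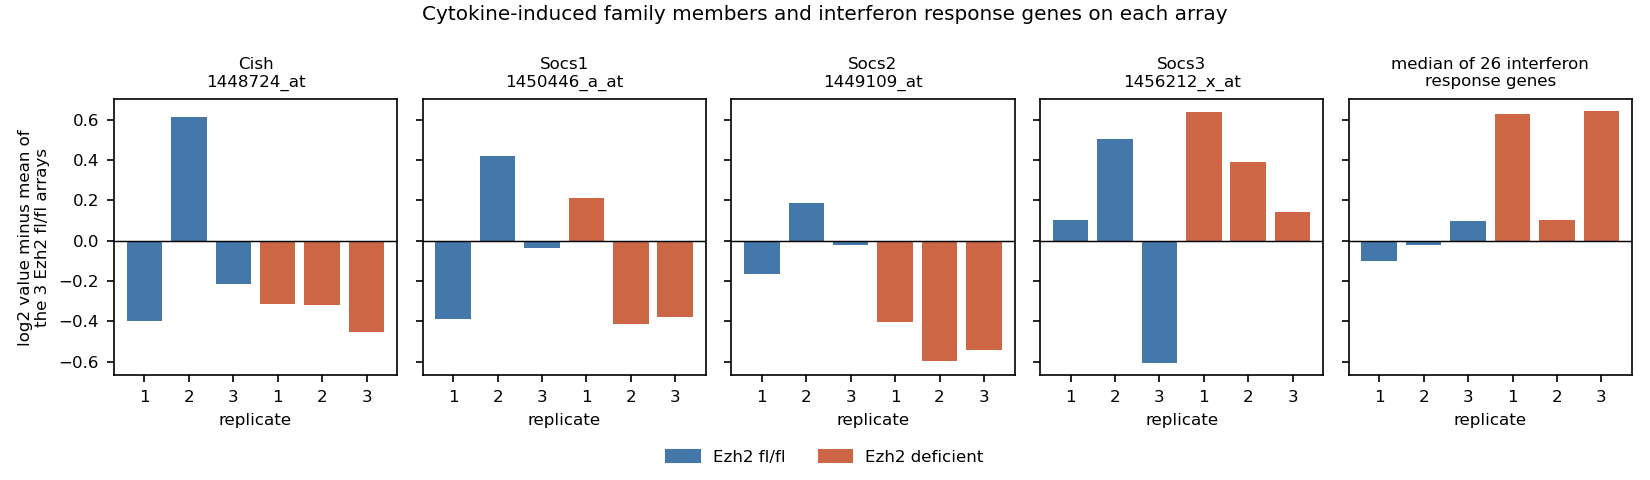
Log2 value of Cish, Socs1, Socs2 (1449109_at) and Socs3 (1456212_x_at), each by its probe set of smallest p, and the median over 26 interferon response genes on each array, as bars relative to the mean of the 3 Ezh2 fl/fl arrays. Ezh2 fl/fl replicate 2 is the tallest control bar for Cish (0.62), Socs1 (0.42), Socs2 (0.19) and Socs3 (0.51), though not on the brightest Socs2 probe set (1442586_at, -0.087), while the interferon genes are high in deficient replicates 1 (0.63) and 3 (0.64).

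Socs1 was set beside interferon response genes, array by array, since interferon is its classical inducer. The median of 26 such genes, as a log2 distance from the control mean, was -0.10, -0.02 and 0.10 in the controls against 0.63, 0.10 and 0.64 in the deficient samples. Socs1 on the same scale was -0.39, 0.42 and -0.04 in the controls against 0.21, -0.41 and -0.38 in the deficient samples. Deficient replicate 1 had high interferon response genes with Socs1 above the control mean, and deficient replicate 3 had them high with Socs1 below it. Deficient replicate 2, with the interferon median at 0.10, had the lowest Socs1 of the deficient samples. A link between Socs1 and these genes was not tested. Of the 26 genes 24 had a positive difference, with a median of 0.36, and limma called 0 of them, with 14 at an unadjusted p under 0.05, all higher, where 3.92% of all tested genes had such a p on the higher side and 4.29% on the lower. Without deficient replicate 2 limma called 1. Oas1a, an antiviral oligoadenylate synthetase, was at 1.22 (adjusted p = 0.161) and the antiviral GTPase Mx1 at 1.40 (adjusted p = 0.344).

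The pathway upstream of the family was described from lists, each gene by its brightest tested probe set, and none of the genes in them passed the test (limma, 0 of 12275 genes by brightest probe set). Among 6 receptor chains of the common gamma chain family, 4 were positive and the median was 0.06. Il2rb, a chain of the IL-2 and IL-15 receptors, averaged 1306 ± 236 and 1587 ± 49.5 (log2 difference 0.29, adjusted p = 0.682), with every deficient array above every control. Il2ra, the inducible IL-2 receptor chain and itself a STAT5 target, was at -0.28 (adjusted p = 0.739). The values of Il2ra were highest in Ezh2 fl/fl replicate 2 at 411, the array that was also highest for Cish.

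Socs3 and Socs1 act on some of the next receptors. Among the chains listed here, Il6st and Ifngr1 had an unadjusted p under 0.05 in limma, both higher. On that side 3.92% of all tested genes had such a p. Of 8 chains of the gp130, IL-12 and IL-10 families, 3 were positive and the median was -0.04. Il6st, which encodes gp130, the chain bound by Socs3, averaged 2007 ± 400 and 2706 ± 488 (log2 difference 0.43, adjusted p = 0.636) with overlapping groups, and Il10ra was at -0.26. Of the 4 interferon receptor chains, 2 were positive, with Ifngr1 at 0.21 (adjusted p = 0.636) and its partner Ifngr2 at -0.20 (adjusted p = 0.762). Of 6 tested hormone and growth factor receptors or substrates of SOCS proteins, 3 were positive, with Egfr at -0.32 and Insr at 0.16.

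Between receptor and SOCS gene stand the kinases and transcription factors. Among the 4 JAK kinases, Tyk2, which serves the type I interferon and IL-12 receptors, averaged 1159 ± 123 and 951 ± 28.0 (log2 difference -0.27, limma unadjusted p = 0.0204, adjusted p = 0.636), with every deficient array below every control. Jak2 was at 0.17 (adjusted p = 0.712). Of 7 listed STAT factors 6 were analysed here, of which 3 were positive, with a median of 0.07, Stat4 at 0.20 and Stat3 at 0.14, and 0 had an unadjusted p under 0.05 in limma. Of genes picked with their values known, Stat2, which serves interferon receptors, had the largest difference of the 6 at 0.30 (adjusted p = 0.716), and Stat5a and Stat5b, the inducers of Cish and Socs2, were at -0.12 and -0.02.

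Of 15 cytokine genes, 14 were found on the array by a single symbol and 6 passed the filter, 4 of them with positive differences and a median of 0.22. Il21 averaged 204 ± 42.4 and 315 ± 83.7 (log2 difference 0.52, adjusted p = 0.651) and Ifng 222 ± 44.8 and 300.2 ± 21.7 (0.38, adjusted p = 0.657). Il2 and Il7, named with their values known, were below the filter.

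Genes that act beside the SOCS proteins were also listed. The 9 partners of the SOCS box ubiquitin ligase had 4 positive and 5 negative differences with a median of -0.09, and the smallest p belonged to Nedd8, the modifier that activates cullins, at -0.14 (adjusted p = 0.695) and the elongin gene Elob at -0.09 (adjusted p = 0.765). Of 15 tested genes for other SOCS box proteins, 7 were positive with a median of -0.02, and the smallest p belonged to Asb13 at 0.20 (adjusted p = 0.637) and Asb1 at 0.22. Of 13 other inhibitors of cytokine signalling, 9 were positive, against 46.9% of all tested genes, with a median of 0.03. In limma 4 had an unadjusted p under 0.05, all higher, against 3.92% of all tested genes on that side. These included Cblb, a ubiquitin ligase, at 0.39 (adjusted p = 0.333) and Usp18, an interferon-induced inhibitor of the type I interferon receptor that is also among the 26 interferon response genes, at 1.08 (adjusted p = 0.540).

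The genes that STATs induce along with the family had mostly positive differences, and 0 passed the test. Of 19 tested, 14 were positive with a median of 0.09, against a median of -0.01 and 46.9% positive over all 12275 genes. In limma 4 had an unadjusted p under 0.05, all higher, against 3.92% of all tested genes on that side and 4.29% on the lower. Gadd45g, a stress and cytokine response gene, averaged 214 ± 40.2 and 333 ± 45.0 (log2 difference 0.55, adjusted p = 0.573), and the transcriptional repressor gene Gfi1 was at 0.40 (adjusted p = 0.596). Cish had the lowest difference of the 19, and the list shares Osm and Il2ra with lists above.

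**Figure D4:**
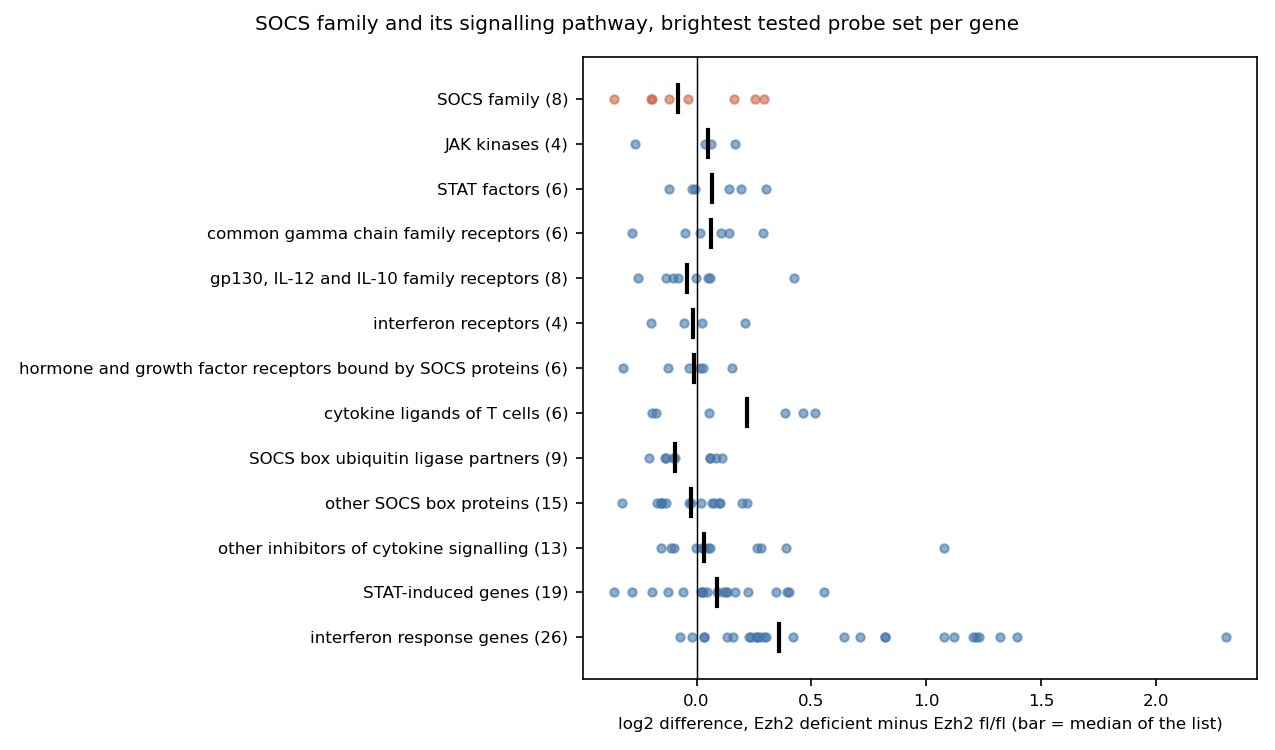
Log2 difference, Ezh2 deficient minus Ezh2 fl/fl, of each tested gene (points, brightest tested probe set) in the SOCS family and in 12 pathway lists, with the number of tested genes in brackets and the list median as a black bar. The SOCS family runs from -0.36 to 0.29 around a median of -0.08, and the interferon response genes lie farthest to the right with a median of 0.36.

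Other cell types of a lymph node were checked by their markers, since B cells and myeloid cells also express SOCS genes. The 5 measured B cell markers summed to 979 to 1112 in the controls against 1104 to 1211 in the deficient samples. They did not share a direction. Cd22 was at 0.36 and Pax5 at 0.33 (adjusted p = 0.751, groups apart, though not in the deposited values). Cd79b was at -0.10 and Ms4a1 at -0.12, and Cd79a was below the filter at 0.40, untested. The 7 dendritic cell markers summed to 1534 to 1737 and 1689 to 2034. The brightest of them were Cd74 and H2-Aa, with control means of 539 and 361. These and H2-Ab1 are MHC class II pathway genes that B cells express too, so this sum is not specific to dendritic cells. A sum follows its brightest genes most and need not track the number of cells. Cd74 was at a log2 difference of 0.32, H2-Aa at 0.49, H2-Ab1 at 0.26, Xcr1 at 0.19, Itgax at 0.02 and Siglech at -0.30. Flt3 was below the filter at -0.47, untested. The 5 natural killer cell markers summed to 2670 to 2980 and 2798 to 3271, sums led by Prf1 and Eomes with control means of 1556 and 919. Gzma was at 185 ± 46.3 and 306 ± 44.2 (log2 difference 0.63, adjusted p = 0.584, groups apart), Eomes at 0.27 and Prf1 at -0.01. Ncr1 and Klra8 were below the filter at -0.21 and -0.07, untested. The 7 monocyte, macrophage and granulocyte markers summed to 889 to 1008 and 859 to 932, with Csf1r at -0.42 on its brightest probe set (adjusted p = 0.632, groups apart) and at 0.29 and 0.12 on its other tested ones, Adgre1 at 0.23 and Lyz2 at -0.14, and S100a8, S100a9, Itgam and Cd14 below the filter. Of 2 erythroid markers, Hba-a1 was at -0.38 (adjusted p = 0.648, groups apart) and Alas2 was below the filter. No marker was listed at 0. Ezh2 fl/fl replicate 2, the array with high SOCS values, had the highest sum of the controls for B, natural killer and dendritic cell markers. Single markers differed. Of the dendritic cell list it was the highest control for Cd74 (595), H2-Aa (437) and H2-Ab1 (264.5). It was the lowest for Itgax (111) and Siglech (114), with Xcr1 and Flt3 in between. Among natural killer cell markers it was the highest for Eomes (1097) and, by little, Ncr1. It was the lowest for Klra8 (12.2), with Prf1 and Gzma in between. Among B cell markers it was the highest for Cd79b (472) only. That array had the lowest sum, 889, for monocyte, macrophage and granulocyte markers. Its T cell marker sum was also the lowest, 70808 against 72240 and 71794, though these lay close. The median T cell marker, as a log2 distance from the control mean, was -0.022 there, against -0.008 and -0.024 in replicates 1 and 3. Cd3e (6887) and Cd3g (11119) were the highest of the controls in that array, and Cd2, Cd4 and Thy1 the lowest. The part of other cells in the SOCS values was not tested.

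Last, for each member the gene with the most similar profile was taken, by the smallest root mean square difference over the 6 arrays between profiles centred on their own means, among the 12274 other tested genes. For Cish this was Pou4f1, at 0.087 where the SD of Cish over the arrays was 0.40, and for Socs1 it was Depdc5, at 0.088 with an SD of 0.36. Socs2 was nearest to Vsig1 (0.034), Socs3 to Sfrp1 (0.075), Socs4 to Atrx (0.016), Socs5 to Commd9 (0.038), Socs6 to Tra2b (0.036) and Socs7 to Pdcd7 (0.038), each on the log2 scale. None of these was another member of the family or a gene of the pathway lists. With 6 arrays and this many genes some profile is bound to lie close, so the names describe these arrays only.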

How the data were processed

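The deposited table holds probe set intensities on a linear scale for 6 arrays. How the authors computed these deposited intensities is not given in the sources used here. Trimmed means, without the outer 2% at each end, were equal across arrays, while the medians ran from 163.3 to 188.1. Intensities were quantile normalised, 43.3 (the 20th percentile of positive values) was added, and log2 was taken. The 64 control probe sets and those with a mean log2 value below the 40th percentile (about 113 in intensity) were left out, which kept 27022.

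The 2 groups were compared with limma 3.58.1 in R 4.3.3, by lmFit and eBayes with an intensity trend over all 6 arrays, two-sided, with 4 residual degrees of freedom and no covariate, with Benjamini-Hochberg adjustment over all 27022. Intervals are limma's and are not adjusted for the number of probe sets. The limma step was first checked on data made with known changes, 50 at each size. At an adjusted p under 0.05 it recovered 22% of 1.5-fold, 76% of 2-fold, 98% of 4-fold and 92% of 5-fold changes, with 4 false calls. The made data held more true changes than limma called in the real data, and their spreads were shuffled over probe sets. These shares therefore need not hold for the real data. Most made changes of 1.5-fold were thus missed. The number of arrays limits the precision.

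Gene symbols came from the platform annotation, and a probe set with several symbols was left unnamed. The members and the gene lists were chosen with earlier results of these data known. All probe sets of the members were named, and otherwise the 2 genes of smallest unadjusted p in each list, the closest profile of each member, the cell type markers (of which examples are given) and Ezh2. Stat2, Stat5a, Stat5b, Il2, Il7 and Osm were named outside this rule, after their values were seen. Promoter letters are from RefSeq. The alternatives were the deposited scaling, median centring, a pseudocount 4 times lower or higher, the filter dropped or raised to the 60th percentile, eBayes with no trend or robust, array weights, each array left out, an adjusted p under 0.10, and the mean of a gene's probe sets.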

Additional observations from a re-analysis of the deposited data

How the results depend on the processing

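Limma called 0 SOCS family probe sets in each of the 15 alternative fits and at an adjusted p under 0.10. The smallest adjusted p of any member in these fits was 0.492, for Socs7 without Ezh2 fl/fl replicate 2, and between 1 and 6 member probe sets had an unadjusted p under 0.05. The Ezh2 difference ran from -1.27 to -1.05 with an array left out. Its adjusted p ran from 0.0306 to 0.264 over the 15 fits and was under 0.05 in 4 of them, with the deposited scaling (0.0421), robust eBayes, array weights (0.0346) and without Ezh2 fl/fl replicate 1 (0.0306). Of the 18 tested member probe sets, 10 kept the sign of their difference under every alternative that gave a value, and 8 turned. Socs5 (1423349_at) turned to 0.054 as the mean of its probe sets, and Socs4 (1455142_at) to 0.039 with median centring. With an array left out, Socs4 ran from -0.088 to 0.0022 on 1455142_at, from -0.157 to 0.076 on 1421273_at and from -0.114 to 0.041 on 1421275_s_at. Socs1 ran from -0.397 to 0.017, Socs3 from -0.067 to 0.231 on 1416576_at and from -0.012 to 0.439 on 1455899_x_at, and Socs6 (1435492_at) from -0.065 to 0.197. The cause of these turns was not tested. The high array Ezh2 fl/fl replicate 2 moved Cish most, and its differences with an array left out ran from -0.561 to -0.054. No paired analysis was possible because the sample titles number the arrays in 1 series and pair none. Dim probe sets limit what could be tested, with 6 of the 24 below the filter.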
